A study of Mus musculus with 4 samples.

Results

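This report describes 39 interferon-stimulated genes, a list of genes named for their response to interferon and chosen from knowledge of that pathway, among the 34866 genes of the deposited table. The choice was made with earlier results of these data known. All 39 were found in the table, each under 1 identifier. The cells came from the spleens of 2 mice called λ-MYC Tom+/ki, each with an IgM+ Tom+ tumor (tumors #1 and #2). These mice carry a human MYC gene under Igλ regulatory sequences, which drives B cell lymphoma. They also carry a Cre knock-in allele and the reporter allele R26tdTom+/ki. Cre switches on the fluorescent protein tdTomato (Tom) for good. Tom+ thus marks a cell with Cre activity at some time, in it or in an ancestor cell, whether or not Cre is active now. From each mouse, B220+ IgM+ splenocytes were separated by Tom, and each fraction was sequenced once, for 4 libraries in all. All 4 libraries share the transgene and both knock-in alleles, and no library of cells without the transgene was analysed here. Mice with tumors were followed until they were moribund, and all mice of the study were 4 weeks of age or older. The exact age and the strain background of these 2 mice are not given in the sources used here.

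Interferons are secreted proteins with which cells warn each other of infection. Type I interferons bind the receptor formed by IFNAR1 and IFNAR2, the kinases JAK1 and TYK2 then phosphorylate STAT proteins, STAT2 among them, and these join IRF9 in a complex that binds the interferon-stimulated response element, a promoter sequence with repeated GAAA. Type II interferon acts on a different element, the gamma-activated sequence. The genes switched on in this way detect foreign nucleic acid, block viral replication and translation, and regulate the pathway itself, and B cells both respond to interferons and express several of these genes at rest.

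Levels are given in transcripts per 1000000 (TPM), which are corrected for transcript length and so can be compared between genes, and 4 values in a row are those of Tom- and Tom+ cells of tumor #1 followed by Tom- and Tom+ cells of tumor #2. Differences are on the scale of log2(TPM + 1), on which changes at low TPM come out too small. Between 10298 and 11357 genes reached 1 TPM per library, and immunoglobulin genes took 5.35% to 9.76% of the TPM. Mitochondrial genes took 6.61% and 8.67% in tumor #1 and 14.4% and 15.6% in tumor #2. TPM keeps no read depth, so the counting error of a value is not known. B cell markers fitted the sort, with Cd79a at 120 (120.4) TPM or more and Ighm at 1255 TPM or more in each library. Several defining markers of other cells were at or near 0, with Cd3e at up to 0.0687 TPM, Siglech at up to 0.257 TPM, and Nkg7, Ncr1, Cd14, C1qa, C1qb and Ly6g listed at 0 in all 4 libraries. Others were detected, among them Cd3d at up to 7.77 TPM, Cd68 at up to 6.41 TPM and S100a8 at 3.003 TPM in tumor #2, and Hbb-bs at 18.8 and 16.1 TPM in tumor #1.

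The interferon-stimulated genes differed between the tumors far more than between Tom+ and Tom- cells. Of their sum of squares, 93.1% was due to tumor, 3.58% to Tom status and 3.30% was left over, against 69.9%, 15.0% and 15.1% over the 11339 genes tested, which are those at 1 TPM or more in at least 2 libraries. Over the 19 genes at 1 TPM or more in both libraries of tumor #1, the shares were 96.3%, 1.05% and 2.61%, against 70.7%, 15.1% and 14.2% over all such genes. In all, 24 of the 39 genes were at least 1 log2 unit higher in tumor #2 than in tumor #1 in both fractions, where 11.8% of all genes tested and 6.85% of all genes above 0 in any library were, and 0 were lower by that much, where 3.10% of all genes were. In Tom+ against Tom- cells, 0 of the 37 genes tested passed an adjusted p of 0.05 with limma, as was true of all genes (0.00%).

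**Figure D1:**
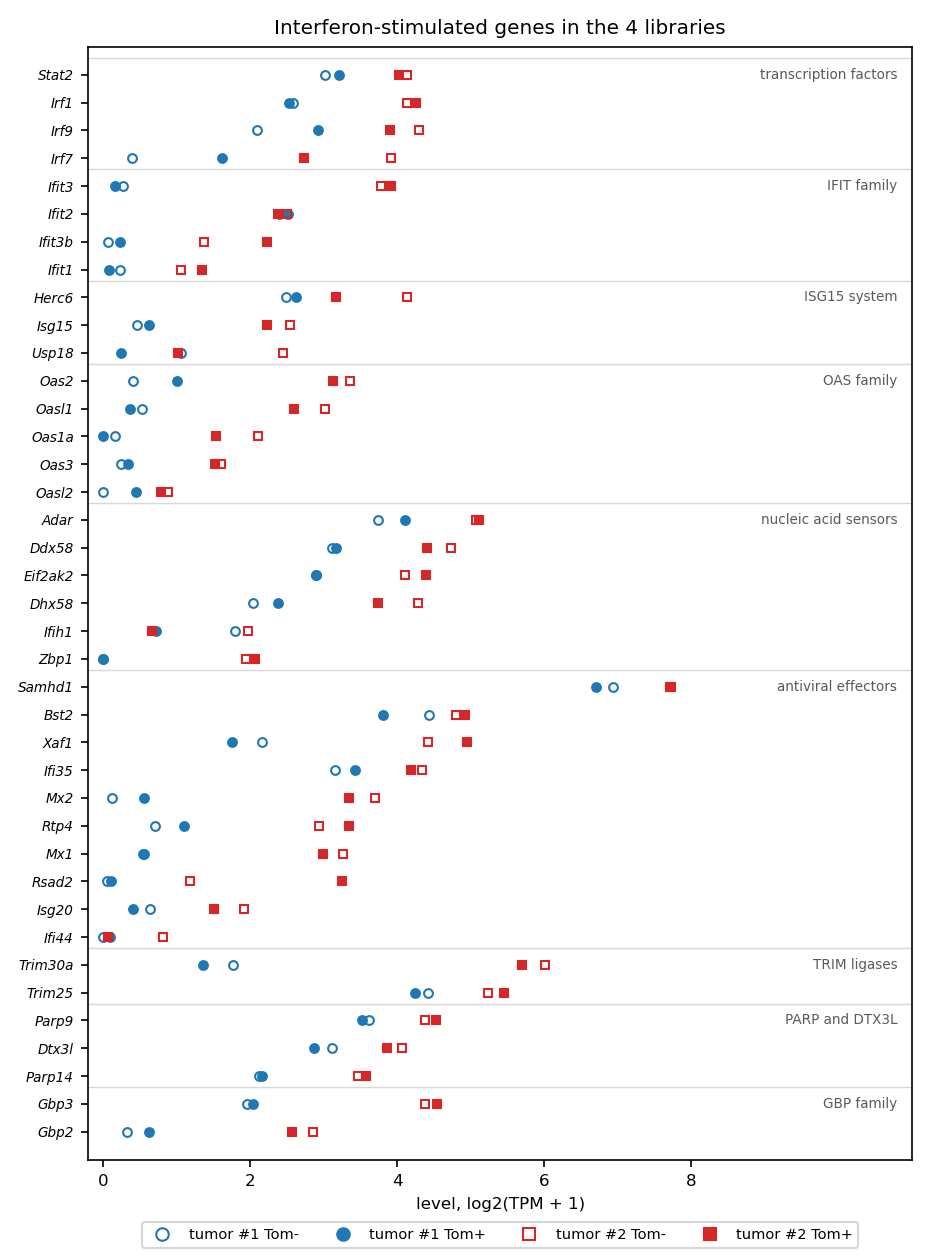
Level of each of the 39 genes in each library as log2(TPM + 1), grouped by role, with tumor #1 as blue circles, tumor #2 as red squares, Tom- cells as open and Tom+ cells as filled symbols. For 35 of the 39 genes both red symbols lie to the right of both blue symbols, the exceptions being Ifit2, Usp18, Ifih1 and Ifi44, and the open and filled symbols show no common order.

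The comparison of the tumors rests on 1 mouse each, so mouse, tumor and handling cannot be told apart, no p-value is given, and the values compare these mice. The SD given with a difference is over the Tom- and Tom+ fractions (n = 2), which come from the same mice and are not separate animals. In a sorted population, fewer cells that express a gene and less RNA per cell cannot be told apart. The summed TPM of the 39 genes was 263 and 244 (243.8) in tumor #1 and 711 and 687 in tumor #2, and their median TPM was 2.40 and 1.56 against 11.9 and 9.11. The number of genes that reached 1 TPM was 21 and 22 in tumor #1 and 37 and 36 in tumor #2. Over all 39 genes the median difference, tumor #2 minus tumor #1, was 1.43 log2 units (1.39 in Tom- and 1.27 in Tom+ cells), against 0.20 over all genes tested. The levels of 35 genes (89.7%) did not overlap between the tumors and were higher in tumor #2, as for 44.8% of all genes tested. Because a gene that is low in tumor #1 could enter the test only through tumor #2, the 19 genes with at least 1 TPM in both libraries of tumor #1 were also counted. Of these, 18 did not overlap and were higher in tumor #2 (40.4% of all such genes), 9 were higher by at least 1 log2 unit in both fractions (7.10% of all such genes), and the median difference was 1.17, against 0.11 over all such genes. The B cell markers moved with this comparison, since all 8 were higher in both libraries of tumor #2 (summed TPM 2454 and 2295 against 5072 and 5948, median difference 1.21). Of all genes tested, 44.8% were higher without overlap. At least 1 log2 unit higher in both fractions were 4 of the 8 markers, against 11.8% of all genes tested. Ms4a1, which encodes CD20, was at 32.9, 20.5, 263 and 209 TPM. The part of the B cell markers and of the larger mitochondrial share of tumor #2 in the result was not tested.

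The 24 genes lay on 10 chromosomes. Under quantile normalization, which lowers the median difference of all genes to -0.08, 15 of the 24 kept their call, and under trimmed-mean scaling, with a median of -0.08 for all genes, 19 of 36 tested did (8.38% of all genes higher and 5.59% lower). Under quantile normalization 7.05% of all genes were called higher and 5.56% lower, against 11.8% and 3.10% with the values as deposited. The genes that lost their call under both scalings were Adar, Ddx58, Eif2ak2, Irf7 and Isg20. Quantile normalization also removed the calls of Ifit3b, Oas3, Parp14 and Rsad2. No member was called lower in tumor #2 under any of these scalings.

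**Figure D2:**
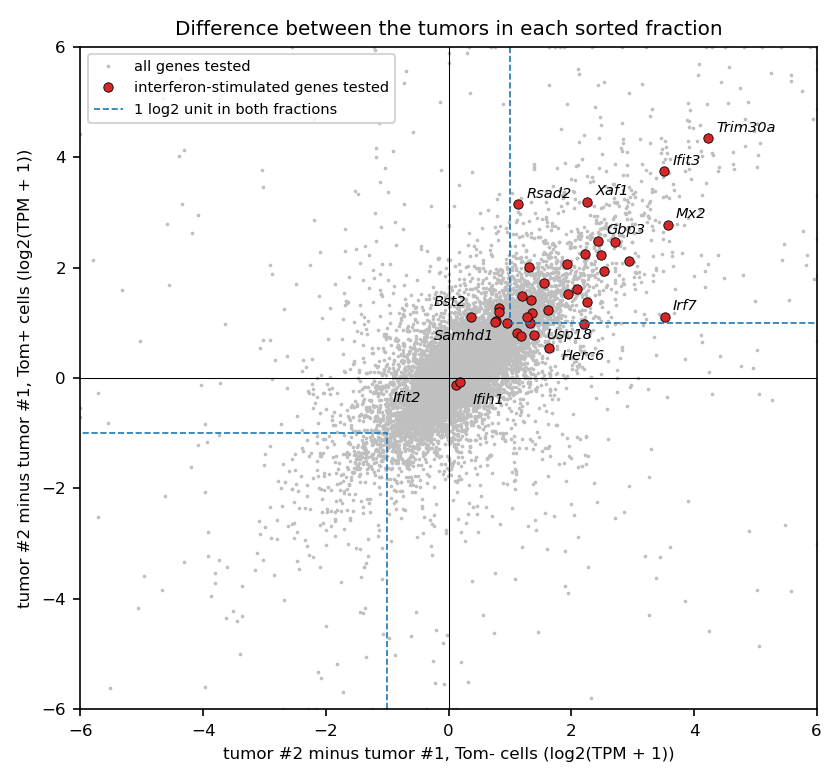
Difference tumor #2 minus tumor #1 in Tom- cells (x axis) and Tom+ cells (y axis), in log2(TPM + 1), for all 11339 genes tested (gray, with points beyond the axes drawn at the edge) and the 37 interferon-stimulated genes tested (red), with dashed lines at 1 log2 unit in both fractions. The red points lie mainly to the upper right, up to Trim30a at 4.24 and 4.35, and Ifit2 and Ifih1 lie near the origin.

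The transcription factors of the pathway were all higher in tumor #2, without overlap, as were 44.8% of all genes tested. Irf1, a factor induced through the gamma-activated sequence, was at 4.997, 4.78, 16.6 and 18.1 TPM, a difference of 1.64 ± 0.12. Irf7, which amplifies the type I interferon response, was at 0.318, 2.07, 14.1 and 5.64 TPM. Its difference between the tumors was 3.52 in Tom- cells and 1.11 in Tom+ cells, since both the lowest and the highest of its 4 values were in Tom- cells. Stat2 and Irf9, partners in the complex that binds the response element, had mean differences of 0.97 and 1.59 and missed 1 log2 unit in Tom+ cells, with 0.82 and 0.98.

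The IFIT family, proteins that bind foreign RNA and block its translation, lies in 1 cluster on chromosome 19 of GRCm38, in the order Ifit2 (34550694 to 34576419), Ifit3 (34583531 to 34588731), Ifit3b (34607970 to 34613401) and Ifit1 (34640871 to 34650009). Neighbors in this cluster behaved differently. Ifit3 was at 0.203, 0.121, 12.8 and 14.1 TPM, so it was low in both libraries of tumor #1 and well above 1 TPM in both of tumor #2 (difference 3.63 ± 0.17). Ifit2, next to it, was at 4.25, 4.70, 4.68 and 4.21 TPM, with overlapping tumors and a difference of -0.01 ± 0.17. Ifit3b was at 0.0422, 0.169, 1.60 and 3.69 TPM (difference 1.66 ± 0.48). Ifit1 was the lowest of the family in tumor #2, at 1.08 and 1.55 TPM, after 0.174 and 0.0564 TPM in tumor #1. Ifit3 and Ifit3b share sequence, as 47% of the 60-base windows of Ifit3 transcripts occur in Ifit3b, so the split of reads between them is uncertain. Ifit2 shares no such window with any other gene.

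The promoters of Ifit3, Ifit3b and Ifit2, and of Isg15 and Trim30a outside the cluster, are shown as a description. Their part in the differences between the tumors was not tested. The 250 bases before the RefSeq start site of 5 genes (GRCm38.p6) are printed 5′ to 3′ on the strand of the gene, with the core of the interferon-stimulated response element in capitals. This core was searched as GAAA, any 2 bases and GAAA again, and on the other strand it reads as TTTC, any 2 bases and TTTC.
Ifit3 (chr19:34583279-34583528, plus strand): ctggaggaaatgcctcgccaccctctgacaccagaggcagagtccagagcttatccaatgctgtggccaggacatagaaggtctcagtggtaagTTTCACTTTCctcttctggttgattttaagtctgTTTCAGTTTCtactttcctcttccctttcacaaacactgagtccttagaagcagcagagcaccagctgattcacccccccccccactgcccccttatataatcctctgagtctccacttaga
Ifit3b (chr19:34607707-34607956, plus strand): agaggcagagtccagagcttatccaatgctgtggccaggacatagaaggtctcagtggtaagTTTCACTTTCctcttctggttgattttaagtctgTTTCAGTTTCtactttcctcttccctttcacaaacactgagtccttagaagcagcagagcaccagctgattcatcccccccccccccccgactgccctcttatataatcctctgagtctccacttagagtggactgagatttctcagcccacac
Isg15 (chr4:156200819-156201068, minus strand): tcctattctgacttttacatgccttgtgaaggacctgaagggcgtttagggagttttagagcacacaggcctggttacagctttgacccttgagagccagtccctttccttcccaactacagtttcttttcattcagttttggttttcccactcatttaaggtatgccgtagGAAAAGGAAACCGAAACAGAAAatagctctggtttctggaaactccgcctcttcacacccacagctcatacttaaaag
Trim30a (chr7:104465194-104465443, minus strand): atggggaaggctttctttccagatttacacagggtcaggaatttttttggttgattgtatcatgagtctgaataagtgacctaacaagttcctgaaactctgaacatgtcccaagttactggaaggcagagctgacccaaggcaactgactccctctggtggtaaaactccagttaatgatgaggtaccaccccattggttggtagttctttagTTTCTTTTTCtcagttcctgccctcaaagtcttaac
Ifit2 (chr19:34550444-34550693, plus strand): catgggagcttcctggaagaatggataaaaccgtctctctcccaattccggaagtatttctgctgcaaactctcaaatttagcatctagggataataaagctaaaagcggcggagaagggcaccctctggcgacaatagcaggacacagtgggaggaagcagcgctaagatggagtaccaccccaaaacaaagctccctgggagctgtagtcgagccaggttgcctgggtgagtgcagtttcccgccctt
Counting the base before the start site as -1, matches began at -156 and -122 in Ifit3 and at -188 and -154 in Ifit3b. Those of Isg15 began at -78, -72 and -66 and overlap each other, and that of Trim30a began at -36. Neither of the RefSeq windows of Ifit2 held a match, which says only that these letters are not in these windows. The promoter of Ifit1, not printed, held matches that began at -104 and -85, and Ifit1 missed 1 log2 unit in Tom- cells, with 0.83.

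Promoter windows of 300 bases, 250 before to 50 after the start site, were given for 30 of the 39 genes. No window was matched for Usp18, Oas2, Dhx58, Zbp1, Mx1, Mx2, Rtp4, Parp9 and Parp14. The core, searched on both strands, occurred in windows of 15 of the 30 genes (50%), against 3.99% of the 27025 genes with a window in the table. It occurred in 11 of 17 windowed genes that were at least 1 log2 unit higher in tumor #2 (64.7%) and in 4 of the 13 others (30.8%), namely Stat2, Ifit1, Ifih1 and Bst2. Among the called genes, Irf1, Irf7, Oasl1, Adar, Isg20 and Xaf1 had a window without a match. The gamma-activated sequence, searched as TTC, any 3 bases and GAA, which reads the same on both strands, occurred in 9 of the 30 genes (30%), Irf1 among them, against 9.55% of all genes with a window. It occurred in 5 of the 17 called genes (29.4%) and in 4 of the 13 others (30.8%). In a separate list of interferon-stimulated genes, described below, 72 had a window. Of these, 35 held the core (48.6%) and 9 the gamma-activated sequence (12.5%). These shares describe letters in a window and are not evidence of binding.

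In the ISG15 system, Isg15 encodes a ubiquitin-like protein that is attached to other proteins. It was at 0.372, 0.535, 4.84 and 3.70 TPM, low in tumor #1 and higher in both fractions of tumor #2 by 1.85 ± 0.34. Herc6, the main ligase for ISG15 in the mouse, was at 4.61, 5.18, 16.5 and 8.02 TPM, with a difference of 1.64 in Tom- and 0.55 in Tom+ cells. Usp18, the protease that removes ISG15 and damps signaling at the interferon receptor, overlapped between the tumors and is described with Tom status.

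Enzymes of the OAS family make the oligoadenylates that activate RNase L. Of the 5 genes listed in this family, 4 were at least 1 log2 unit higher in tumor #2, against 11.8% of all genes tested. However, 0 of the 5 were at 1 TPM or more in both libraries of tumor #1. The genes tested thus entered the test only through tumor #2, where they are high, and the count has no matched share. Oas2 was at 0.330, 1.00, 9.23 and 7.72 TPM (difference 2.53 ± 0.58). Oasl1, which represses the translation of Irf7, was at 0.436, 0.287, 7.08 and 5.06 TPM (2.36 ± 0.18). Oas3 was at 0.181, 0.262, 2.02 and 1.88 TPM (1.27 ± 0.12). These genes were at or under 1.00 TPM in tumor #1 and above it in tumor #2, without overlap. Oas1a was listed at 0.115, 0, 3.32 and 1.89 TPM (1.74 ± 0.30), and 52.9% of its 60-base windows occur in Oas1g, so its reads are uncertain. Oasl2 stayed under 1 TPM in all 4 libraries, at most 0.841, and was not tested.

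Among the sensors of nucleic acid and their partners, 5 of 6 were at least 1 log2 unit higher in tumor #2. The share of all genes tested was 11.8%. Of these genes, Ddx58, Eif2ak2 and Adar lost this call under both trimmed-mean scaling and quantile normalization. Ddx58, which encodes RIG-I, the sensor of short double-stranded RNA, was at 7.64, 7.95, 25.7 and 20.2 TPM (1.43 ± 0.27). Its regulator Dhx58, which encodes LGP2, was at 3.09, 4.19, 18.5 and 12.4 TPM (1.81 ± 0.63). Ifih1, which encodes MDA5, the sensor of long double-stranded RNA, was the exception of the group, at 2.46, 0.653, 2.92 and 0.581 TPM, a difference of 0.06 ± 0.17 with overlapping tumors. Eif2ak2, which encodes the kinase PKR that halts translation, was at 6.45, 6.47, 16.1 and 20.0 TPM (1.35 ± 0.21). Adar, which edits adenosine in double-stranded RNA, was at 12.4, 16.3, 32.7 and 33.7 TPM (1.17 ± 0.23). Both were above 6 TPM in all 4 libraries. Zbp1, a sensor of nucleic acid in the Z form, was listed at 0 in each library of tumor #1, while tumor #2 gave 2.83 and 3.20 TPM, and no fold is given against 0.

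Of the 10 antiviral effectors, 6 were at least 1 log2 unit higher in tumor #2 and 9 were higher without overlap. The shares of all genes tested were 11.8% and 44.8%. Only 4 effectors were at 1 TPM or more in both libraries of tumor #1. Of these, 1 was at least 1 log2 unit higher in both fractions and 4 were higher without overlap (7.10% and 40.4% of all such genes). Mx1, a GTPase that traps viral nucleoproteins, was at 0.471, 0.449, 8.59 and 6.98 TPM (2.58 ± 0.17). Mx2, which the annotation lists as a polymorphic pseudogene, was at 0.0870, 0.471, 11.9 and 9.11 TPM (3.18 ± 0.56). Both paralogs were under 0.5 TPM in tumor #1. Xaf1, an inhibitor of XIAP, was at 3.47, 2.38, 20.4 and 29.99 TPM (2.73 ± 0.66). Rtp4 was at 0.637, 1.14, 6.67 and 9.15 TPM (2.24 ± 0.01). Isg20, an RNA exonuclease, was at 0.562, 0.325, 2.77 and 1.85 TPM (1.19 ± 0.12). For these genes the gap between the tumors exceeded the gap between the fractions. Rsad2, which encodes viperin, was at 0.0356, 0.0768, 1.28 and 8.54 TPM (2.14 ± 1.42), so that its difference rested mostly on the Tom+ library of tumor #2. Jchain, a plasma cell gene, stood out in that same library at 209 TPM, against at most 1.72 TPM in the others. Of the other plasma cell markers, Xbp1, Irf4 and Prdm1 were also at their highest there, with 21.2, 29.4 and 0.570 TPM. Mzb1 was at its lowest there, with 80.6 TPM, and Sdc1, at 0.428 TPM, was below both libraries of tumor #1. The part of these markers in the result was not tested.

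The other effectors differed by under 1 log2 unit on average. Samhd1, a dNTP hydrolase and the gene with the highest mean TPM of the 39, was at 122, 103, 208 and 211 TPM (0.90 ± 0.18). Bst2, which encodes tetherin, was at 20.6, 13.0, 26.9 and 29.3 TPM (0.74 ± 0.53). Both were higher in both fractions of tumor #2, without overlap, but under 1 log2 unit in Tom- cells. Ifi35 had a mean difference of 0.97, and Ifi44 was under 1 TPM in all 4 libraries, at most 0.752, and was not tested.

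Trim30a, a ubiquitin ligase of the TRIM family on chromosome 7 (104409025 to 104465193, minus strand), had the largest difference of the 39 genes on this scale, although with a pseudocount of 0.1 Ifit3 (5.71), Mx2 (5.01) and Zbp1 (4.96) exceeded it (4.80). Trim30a was at 2.41, 1.56, 63.1 and 51.0 TPM, a ratio of 26.2 in Tom- and 32.8 in Tom+ cells, and 4.29 ± 0.08 on the log2 scale. It was above 1 TPM in all 4 libraries. Trim25, the ligase that modifies RIG-I, was at 20.3, 17.9, 36.6 and 42.6 TPM, higher in tumor #2 by 0.82 and 1.20. In the group of ADP-ribosyltransferases and their partner, Parp14 was at 3.35, 3.45, 10.1 and 10.9 TPM (1.39 ± 0.05). Parp9, which forms a complex with Dtx3l and overlaps it in the genome, was at 11.3, 10.5, 19.7 and 22.1 TPM (0.88 ± 0.18), and Dtx3l had a difference of 0.97 ± 0.04. Parp9 and Dtx3l did not overlap between the tumors and were near the limit of 1 log2 unit on either side, with 0.75 and 1.01 for Parp9 and 0.95 and 1.00 for Dtx3l. The guanylate-binding proteins, GTPases that attack pathogen vacuoles, were both higher in tumor #2. Gbp2 was at 0.250, 0.539, 6.24 and 4.93 TPM (2.24 ± 0.42) and Gbp3 at 2.86, 3.12, 19.8 and 22.2 TPM (2.46 ± 0.04).

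One question of the study was how Tom+ and Tom- cells of the same tumor differ. The paper reports differentially expressed genes from its own paired test, which was not run here. For the interferon-stimulated genes no direction was shared. With limma and the tumor as a block, the log2 fold changes of the 37 genes tested ran from -1.19 to 1.06, with a median of 0.02 (all genes tested -0.03) and adjusted p-values from 0.936 to 0.999. The median was 0.03 in tumor #1 and -0.12 in tumor #2. At an unadjusted p of 0.05, 2 of the 37 genes (5.41%) were counted, against 4.67% of all genes tested. Both were lower in Tom+ cells, as were 2.64% of all genes, and 0 were higher, where 2.04% of all genes were. Without the block, 0 of 37 were counted. In both tumors, 7 genes were higher in Tom+ cells (21.6% of all genes tested were) and 8 lower (29.5% of all genes). For 21 genes the sign differed between the tumors, and Zbp1 was listed at 0 in both fractions of tumor #1. The fit has 1 residual degree of freedom, so a difference that misses the threshold is not shown to be absent.

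**Figure D3:**
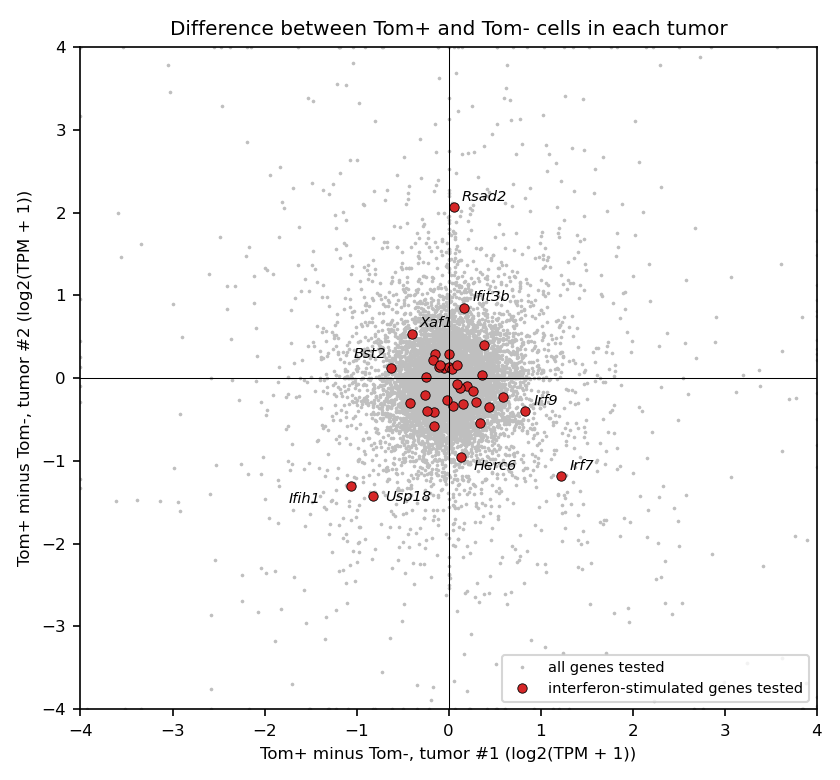
Difference Tom+ minus Tom- in tumor #1 (x axis) and tumor #2 (y axis), in log2(TPM + 1), for all 11339 genes tested (gray, with points beyond the axes drawn at the edge) and the 37 interferon-stimulated genes tested (red). The red points surround the origin, with Ifih1 and Usp18 lower in Tom+ cells in both tumors and Irf7 at 1.22 in tumor #1 and -1.19 in tumor #2.

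The pair with an unadjusted p under 0.05 was Ifih1 and Usp18. Ifih1 was at 2.46 and 2.92 TPM in Tom- cells and at 0.653 and 0.581 TPM in Tom+ cells, without overlap. Its log2 fold change was -1.19 (SE 0.24, unadjusted p = 0.014, adjusted p = 0.936 with limma), with -1.06 in tumor #1 and -1.31 in tumor #2. Usp18 was at 1.08 and 4.44 TPM in Tom- cells and at 0.178 and 1.02 TPM in Tom+ cells, so that each Tom+ library was below the Tom- library of its own mouse. Its log2 fold change was -1.13 (SE 0.29, unadjusted p = 0.027, adjusted p = 0.936 with limma), with -0.82 and -1.43. The next genes with the same sign in both tumors and lower values in Tom+ cells were Oas1a at -0.37 and Trim30a at -0.36. Higher values in both tumors were led by Rsad2, with 0.06 in tumor #1 and 2.07 in tumor #2 (mean 1.06, SE 0.61), followed by Ifit3b at 0.51, Rtp4 at 0.40 and Adar at 0.20. None of these passed the test at an unadjusted p of 0.05. Irf7 was the only gene of the list with a difference of at least 0.5 log2 units in opposite directions, 1.22 in tumor #1 and -1.19 in tumor #2, as for 4.41% of all genes tested.

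The rest of the pathway was described with lists that hold none of the 39 genes. Of 21 genes for interferons themselves, 20 were listed at 0 in all 4 libraries, and Ifng, the type II interferon, was at 0.328 and 0.0825 TPM in the Tom- cells of tumors #1 and #2 and listed at 0 in Tom+ cells. Of the 11 genes for receptors, kinases and STAT proteins, 3 were at least 1 log2 unit higher in tumor #2 in both fractions and 0 lower (11.8% and 3.10% of all genes tested), with a median of 0.46. Among them, the receptor chains Ifngr1 and Il10rb differed by 1.06 ± 0.01 and 1.91 ± 0.40. The largest Tom+ against Tom- fold changes of this list were -0.49 for the kinase gene Jak1 and -0.31 for Il10rb, with unadjusted p-values of 0.057 and 0.290 with limma.

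Of 15 genes for nucleic acid sensors, their adaptors, kinases and factors upstream of interferon, 6 were at least 1 log2 unit higher in tumor #2 in both fractions and 0 lower (11.8% and 3.10% of all genes tested), with a median of 0.62. They included the endosomal receptors Tlr7 (0.0195, 0.211, 4.74 and 2.16 TPM) and Tlr9 (1.19, 0.799, 5.83 and 5.61 TPM). Tmem173, which encodes the adaptor STING, was at 4.26, 5.02, 16.8 and 20.2 TPM, and the factor Irf5 at 18.4, 9.31, 44.0 and 53.9 TPM. These 4 genes were named for the largest differences among the 6, so that they were higher in both fractions follows from the choice. Over the whole list of 15, 10 were higher and 2 lower in tumor #2 without overlap (44.8% and 23.7% of all genes tested). Irf8, a factor of B cells and myeloid cells, had lower values in Tom+ cells of both tumors, at 25.2 and 71.6 TPM in Tom- and 18.9 and 45.5 TPM in Tom+ cells (-0.52, SE 0.16, unadjusted p = 0.044, adjusted p = 0.936 with limma). The kinase gene Ikbke had the next largest Tom+ against Tom- value of the list, 0.46 with an unadjusted p of 0.129. Of 10 negative regulators, 0 were at least 1 log2 unit higher in tumor #2 in both fractions and 1 was lower, the ubiquitin ligase gene Rnf125, at 3.71, 3.56, 0.875 and 0 TPM, and the median was 0.18. These counts are small, as are the shares of all genes tested (11.8% higher and 3.10% lower). Pias4, an inhibitor of STAT signaling, was at 39.4, 89.8, 110 (110.2) and 154 TPM, with a Tom+ against Tom- fold change of 0.82 (SE 0.23, unadjusted p = 0.033, adjusted p = 0.936 with limma).

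Of a further 93 genes known to respond to interferon, 42 were at least 1 log2 unit higher in tumor #2 in both fractions and 0 lower by that much (11.8% and 3.10% of all genes tested), with a median of 1.12. Without overlap, 73 were higher and 6 lower in tumor #2, against 44.8% and 23.7% of all genes tested. Of all genes above 0 in any library, 37.2% were higher without overlap. Among the 53 genes of this list at 1 TPM or more in both libraries of tumor #1, 26 were at least 1 log2 unit higher in both fractions (7.10% of all such genes). This list, too, was chosen with earlier results of these data known. Ifi213, of the interferon-inducible family on chromosome 1 that binds DNA, was at 0.827, 1.19, 86.5 and 98.1 TPM (5.54 ± 0.06). Ms4a4c was at 0.144, 0.0460, 36.3 and 24.5 TPM (4.82 ± 0.30). Trim30d, a neighbor of Trim30a that shares 5.5% of its windows, was at 0.0229, 0.111, 20.6 and 14.0 TPM (4.08 ± 0.46), and Shisa5 was at 18.2, 14.5, 211 and 314 TPM (3.91 ± 0.62). In Tom+ against Tom- cells, 0 of the 72 tested passed an unadjusted p of 0.05, the largest values being -0.88 for Ifi27 and -0.76 for Tdrd7. In none of these lists did a gene pass an adjusted p of 0.05 with limma.

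**Figure D4:**
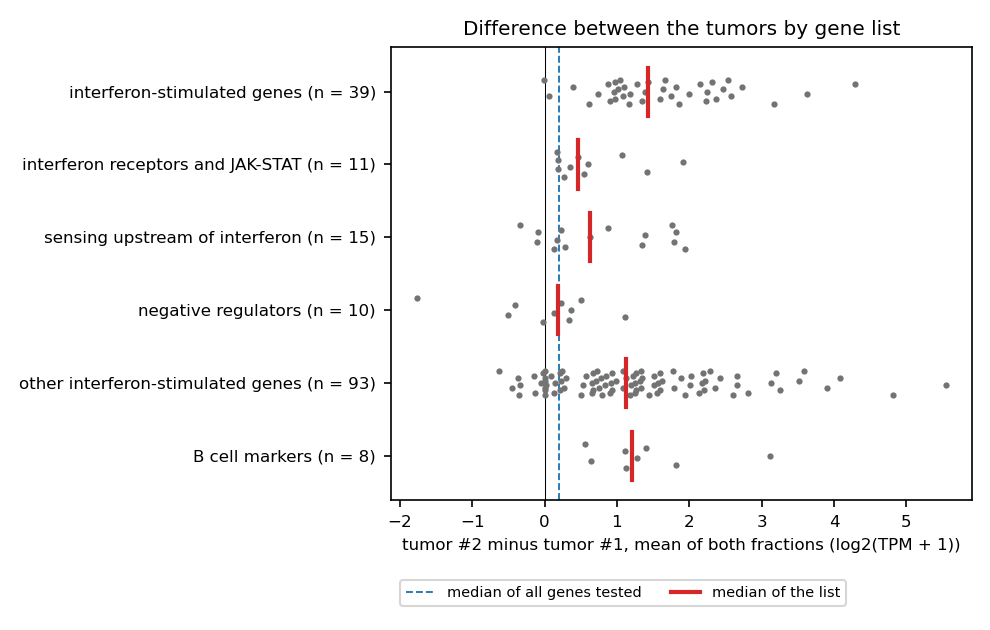
Difference tumor #2 minus tumor #1, the mean of both fractions in log2(TPM + 1), for every gene of 6 lists (gray points), with the median of each list (red line) and of all 11339 genes tested (dashed blue line, 0.20). The medians are 1.43 for the 39 interferon-stimulated genes, 0.46 for receptors and JAK-STAT, 0.62 for sensing, 0.18 for negative regulators, 1.12 for other interferon-stimulated genes and 1.21 for the B cell markers.

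Lists of markers of other cells that could give interferon-stimulated transcripts were summed in each library. Plasmacytoid dendritic cell markers summed to 44.3, 35.7, 32.1 and 33.3 TPM, a sum in which Cox6a2 gave 23.4, 10.5, 0.734 and 0 TPM. Of these 8 markers, 4 were higher in tumor #2 without overlap, namely Siglech and Ccr9, at most 0.499 TPM, and Tcf4 and Bcl11a, which B cells also express, at 8.77, 11.1, 11.2 and 13.6 TPM and at 11.3, 12.7, 18.7 and 18.5 TPM, and 1, Cox6a2, was lower. These counts are near the shares of all genes tested, 44.8% higher and 23.7% lower without overlap. Macrophage and monocyte markers summed to 2.60, 4.86, 9.62 and 9.04 TPM, of which Cd68 gave 1.92, 4.11, 4.58 and 6.41 TPM. Mpeg1 gave 0.200, 0.149, 1.68 and 2.00 TPM. Lyz2 was at 0, 0.254, 1.41 and 0.310 TPM and Itgam at 0.412, 0.278, 1.78 and 0.208 TPM. The other markers of this list were at 0.115 TPM or less. T cell markers summed to 7.61, 4.65, 18.9 and 15.6 TPM, of which Lck gave 7.21, 4.25, 10.6 and 11.5 TPM and Cd3d 0.329, 0.0513, 7.77 and 2.09 TPM. NK cell markers summed to at most 0.978 TPM. Neutrophil markers were at 6.27 TPM in the Tom- library of tumor #2 and at most 0.239 TPM in the others, while erythroid markers were at 21.5 and 17.6 TPM in tumor #1 and at most 0.967 TPM in tumor #2. The part of the plasmacytoid dendritic cell, macrophage and T cell markers in the difference between the tumors was not tested.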

How the data were processed

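B220+ IgM+ Tom+ and Tom- splenocytes of 2 mice were measured by RNA-seq of polyA RNA (single reads, 4 libraries). The authors trimmed adaptors (Cutadapt), estimated abundance on the GRCm38 transcriptome (Salmon) and deposited TPM for 34866 genes, each library summing to 1000000. The submitters' processing notes name CASAVA 1.8 and Salmon 1.9. The annotation release behind the table is uncertain. The authors' own test needs read counts and was not run. TPM keeps no depth, so the reads behind a value are unknown.

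Symbols and positions came from GENCODE M21 (GRCm38), which held 34582 of the identifiers, and promoters from RefSeq (GRCm38.p6). Tom+ and Tom- cells were compared with limma 3.58.1 in R 4.3.3 on log2(TPM + 1) for the 11339 genes at 1 TPM or more in at least 2 libraries, with the tumor as a block, a variance trend (1 residual and 2.21 prior degrees of freedom) and Benjamini-Hochberg adjustment over all genes tested. An exact permutation test within 2 pairs could not reach 0.05. The libraries are paired by mouse, and across genes the deviations within a pair correlated (Pearson r 0.63, Spearman rho 0.67), as a description with no p. Tumors were compared without a test, within each fraction, with a call at 1 log2 unit of the same sign in both. Shared sequence was counted as 60-base windows of GENCODE transcripts found in another gene. Python 3.11.15, pandas 2.3.3, numpy 2.4.6 and matplotlib 3.10.9 were used. The code of the fit was also run on simulated data, with an assumed spread and with larger changes than most of those described here. That run does not show whether the fit could find smaller changes in these data.

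Full values are given for the 6 genes with the highest mean TPM, those with an unadjusted p under 0.05, the 4 per direction with the largest fold change of the same sign in both tumors, those called between the tumors, and those with at least 0.5 log2 units in opposite directions. In each other pathway list the 4 largest called genes and the 2 with the largest Tom+ against Tom- fold change are named. A few more members, markers and families were named after their values were seen. The genes and lists were chosen with earlier results of these data known. Alternatives were no block, other pseudocounts and filters, scaling by a trimmed mean (trimming 30% by ratio and 5% by level at each end), quantile normalization, subsets of genes, other variance models, each tumor left out and each fraction alone. Some items, which the gene lists and the description of the mice would otherwise name, are not reported here.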

Additional observations from a re-analysis of the deposited data

Results flagged for a closer look

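Irf7 was picked out because its Tom+ against Tom- values went in opposite directions in the tumors, 1.22 log2 units in tumor #1 and -1.19 (-1.188) in tumor #2, with 1 library per fraction and tumor. This difference between the tumors was not tested.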

How the results depend on the processing

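Across all alternatives with a test, 0 genes passed an adjusted p of 0.05 with limma, while 140 (no block) to 638 (no filter) genes had an unadjusted p under 0.05 against 530 as reported. The replicate block, the tumor, changed the count of members at an unadjusted p under 0.05, which was 2 with it and 0 without it, and it was also 0 at a mean TPM of at least 5, a filter that Ifih1 and Usp18 do not pass. Their median fold change, 0.016, was -0.12 without replicate 1, a change of sign, and 0.032 without replicate 2, and it was at most 0.051 in the other alternatives (immunoglobulin genes left out), and with 1 tumor left out no p-value can be had. The count of members called between the tumors, 24 as reported, was 12 at a mean TPM of at least 5 (21 tested), 15 under quantile normalization and 9 among the 19 at 1 TPM or more in both tumor #1 libraries, a filter chosen after seeing the data. The cause of the lower count under quantile normalization was not tested. The median difference between the tumors over the tested members, 1.59, was 1.73 and 2.16 with pseudocounts of 0.5 and 0.1, 1.43 without a filter, 1.39 at a mean TPM of at least 5, 1.33 with trimmed-mean scaling, 1.16 under quantile normalization, 1.17 with the filter on tumor #1 and 1.37 in Tom+ cells alone. No member was called lower in tumor #2 in these alternatives. Other alternatives left these values within 1.5 times or within the spread. With 1 mouse per tumor and no read counts, neither the spread between mice nor the depth is known.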

Other observations

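Several families in the list of 93 other interferon-responsive genes were described as families, chosen after their values were seen. In the Schlafen family, regulators of lymphocyte quiescence and of RNA, 5 of 7 genes were at least 1 log2 unit higher in tumor #2 in both fractions. The share of all genes tested was 11.8%. Slfn2 was at 0.831, 0.384, 22.1 and 14.9 TPM (Tom- and Tom+ cells of tumor #1, then of tumor #2) and Slfn5 at 1.67, 1.85, 14.6 and 18.3 TPM. Slfn3 lay the other way, at 8.44, 9.06, 5.94 and 7.42 TPM, and Slfn4 stayed under 1 TPM. The Speckled protein genes Sp100, Sp110 and Sp140, which encode chromatin readers, were all called. Sp140 was at 12.0, 16.2, 139 and 122 TPM and Sp110 at 40.9, 39.8, 178 and 184 TPM. These genes were thus abundant in tumor #1 too.

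Some genes known to respond to interferon were not higher in tumor #2. Nmi was at 47.7, 44.7, 29.5 and 29.4 TPM, Lap3 at 66.5, 57.2, 50.3 and 40.2 TPM and Pnpt1 at 40.9, 34.7, 28.1 and 31.3 TPM, all without overlap and lower in tumor #2. The chemokine genes Cxcl9, Cxcl10 and Ccl5 were at 0.261 TPM or less in all 4 libraries, with Cxcl9 listed at 0 throughout. Cd274, which encodes the checkpoint ligand PD-L1, was at 0.286, 0.471, 5.14 and 7.07 TPM (difference 2.36 ± 0.14).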
